A study of Mus musculus with 4 samples.

Results

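The imprinted Dlk1-Dio3 locus carries a large group of miRNAs, and their reads are described here in basal and luminal cells sorted from the mouse prostate. Members were taken by name, as any arm, letter or copy of the miRNA numbers that are known from this locus. Of the 816 mouse miRNA names listed over all libraries, 62 were members. The rule used no read count. The samples were total RNA of prostate cells from wild-type male C57Bl/6 mice aged 10 weeks, with 2 libraries of basal cells and 2 of luminal cells. Per the labels' protocols, both gates took Sca-1 positive, lineage negative cells, and high CD49f defined basal and low CD49f luminal cells. Luminal therefore means a Sca-1 positive gate with low CD49f and not every luminal cell of the gland. Separate animals are not stated for the libraries of a group. The p-values below therefore reflect nothing but the scatter of these libraries, and that scatter may be technical.

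In mammals the protein-coding genes of this locus, among them Dlk1 and Rtl1, are expressed from the paternal chromosome, and its noncoding RNAs from the maternal one. The noncoding Meg3, the transcript opposite Rtl1, Rian and Mirg follow each other on the plus strand. The miRNAs are thought to be cut from these long transcripts. The miRNAs of the locus are best known from the embryo, the placenta and the brain, and are generally low in adult epithelia.

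On GRCm38, Dlk1 lies on chromosome 12 from 109452823 to 109463336, Meg3 from 109541001 to 109571726, Rtl1 from 109589193 to 109600330, Rian from 109603940 to 109661716 and Mirg from 109729764 to 109749460 (GENCODE M21 annotation). Rtl1 is on the minus strand and the others are on the plus strand. RefSeq mature sequences matched 58 of the 62 names, and all 58 lie on chromosome 12. The other 4 names, miR-376c-3p, miR-485-5p, miR-487b-3p and miR-3070b-5p, were placed by the hairpin of that name. The members fall into 5 stretches in plus-strand order, with 6 before Rtl1 and 7 opposite the Rtl1 exon. Another 4 lie in introns of Rian, 27 between Rian and Mirg and 18 within Mirg.

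The mature sequences below belong to the members on which the results turn. They are RefSeq sequences on GRCm38.p6, given 5′ to 3′, with the seed (bases 2 to 8, which pairs with target RNAs) in capitals. All lie on the plus strand of chromosome 12. Of the members shown, only miR-379-3p and miR-411-3p have the same seed. These 2 also differ by only 2 edits over their whole length, so reads may have been shared between them.
miR-127-3p: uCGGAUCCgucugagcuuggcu
miR-136-5p: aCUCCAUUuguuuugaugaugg
miR-434-3p: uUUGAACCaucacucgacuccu
miR-379-5p: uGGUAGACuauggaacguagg
miR-379-3p: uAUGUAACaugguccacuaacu
miR-411-3p: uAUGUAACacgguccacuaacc
miR-329-3p: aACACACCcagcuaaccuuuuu
miR-494-3p: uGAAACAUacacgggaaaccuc
miR-377-3p: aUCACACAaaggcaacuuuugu
miR-541-5p: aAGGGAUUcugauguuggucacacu
miR-369-3p: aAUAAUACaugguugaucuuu
miR-410-3p: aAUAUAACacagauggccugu

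The cluster was a very small part of the miRNA pool in both cell types, and its summed reads were lower in basal than in luminal libraries. All members together had 146 and 1140 reads in basal replicates 1 and 2, against 1570 and 832 reads in luminal replicates 1 and 2. With the Cali and adaptor names left out, the libraries held 1855718 and 3278294 miRNA reads in basal cells and 1583830 and 1501898 in luminal cells. The member share of miRNA reads was 0.00787% (exact Clopper-Pearson 95% interval 0.00664 to 0.00925) in basal replicate 1 and 0.0348% (0.0328 to 0.0369) in basal replicate 2. It was 0.0991% (0.0943 to 0.104) in luminal replicate 1 and 0.0554% (0.0517 to 0.0593) in luminal replicate 2. These intervals cover counting error only. The groups did not overlap, but the gap between basal replicates 1 and 2 (4.42-fold) was wider than that between basal replicate 2 and luminal replicate 2 (1.59-fold). The group means were 0.0213% ± 0.0190 for basal and 0.0773% ± 0.0309 for luminal cells (SD, n = 2 libraries each). The summed level was not tested, since the smallest p open to an exact permutation of 2 against 2 libraries is 0.333.

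The denominator matters for so small a share. miR-200c-3p, the most abundant miRNA, made up 22.3% of the miRNA pool of basal replicate 1 and 46.9% of that of basal replicate 2, against 68.5% and 71.6% in luminal replicates 1 and 2. Without it, the member share averaged 0.0378% ± 0.0392 for basal and 0.255% ± 0.0847 for luminal cells (SD, n = 2 libraries each), a 6.75-fold higher luminal mean in place of 3.62-fold. The table also holds names that begin with Cali, and the sources used here do not say what they are. Per 1000000 Cali reads, the members had 189 and 296.1 reads in basal replicates 1 and 2, against 600.0 and 378 in luminal replicates 1 and 2, and the luminal mean was 2.01-fold higher. Under each of these denominators and over all listed reads, both basal libraries lay below both luminal libraries.

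**Figure D1:**
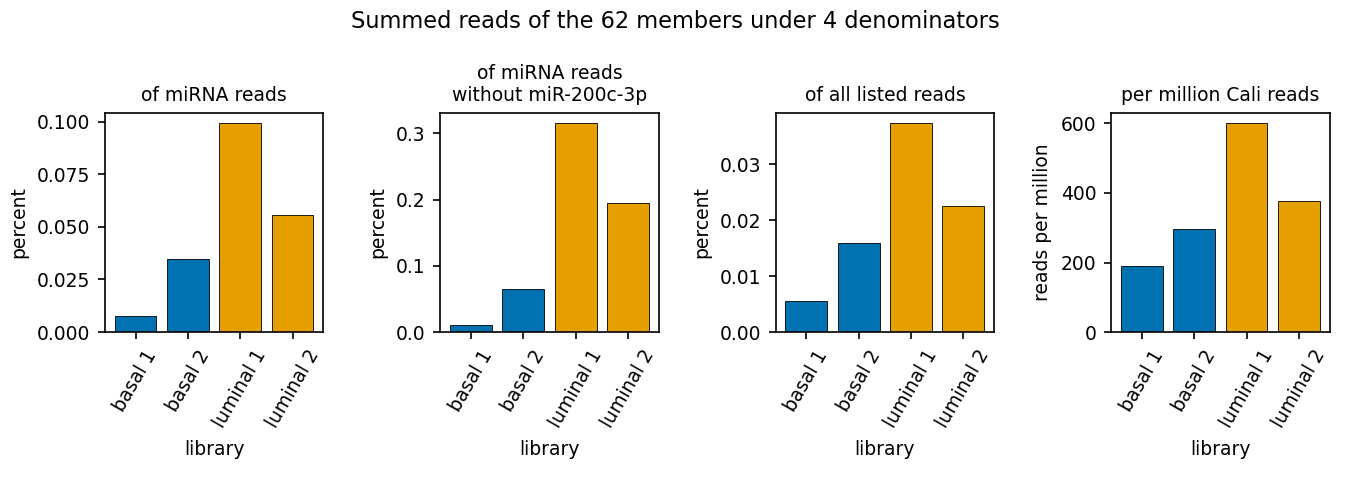
Summed reads of the 62 members in each library (bars, 1 per library) under 4 denominators, in percent or in reads per 1000000 Cali reads. The basal libraries lie below the luminal libraries in all 4 panels, and basal replicate 1 is lowest, at 0.00787% of miRNA reads.

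Detection of single members differed as widely. Basal replicate 1 listed 21 of the 62 members and basal replicate 2 listed 39, while luminal replicate 1 listed 46 and luminal replicate 2 listed 28. Of all 816 miRNAs, the same libraries listed 67.0% and 67.2% in basal and 70.2% and 54.5% in luminal cells, so basal replicate 1 listed about as large a share of all miRNAs as basal replicate 2 while listing fewer members. Luminal replicate 2 had the fewest miRNA reads, and basal replicate 1 the fewest listed reads. A name with no reads may still stand for up to 3 reads, which is 1.62 and 0.915 reads per 1000000 miRNA reads in basal replicates 1 and 2. In luminal replicates 1 and 2 it is 1.89 and 1.997. Only 12 members (19.4%) were listed in all 4 libraries, against 40.2% of all miRNAs. Of the members, 26 (41.9%) were listed in a single library, against 32.8% of all miRNAs. With reads in luminal libraries alone there were 19 members (30.6%, against 18.8% of all miRNAs), and with reads in basal libraries alone 9 (14.5%, against 20.5%). Members with at least 10 reads in any library numbered 30. The other 32 had 150 reads in all, and none of them exceeded 9 reads in a library.

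Other cells that may pass the gates were followed through miRNAs known as their markers. Levels below are TMM-normalised reads per 1000000 miRNA reads (RPM). The neural list, with 17 listed names, summed to 63.5 and 112.9 RPM in basal replicates 1 and 2, against 634 and 349.7 RPM in luminal replicates 1 and 2. The neural miRNA miR-124-3p had 3 and 6 reads in basal and 6 and 0 reads in luminal replicates 1 and 2, while miR-9-5p had 3 and 24 reads in basal and 338 and 91 reads in luminal replicates 1 and 2. Of the 9 tested names of the list, 8 had a log2 fold change below 0 and 1 passed the threshold, miR-9-5p. The fibroblast and smooth muscle list of 11 names summed to 1660 and 2677 RPM in basal against 10783 and 13665 RPM in luminal replicates 1 and 2, and 9 of its 11 tested names were below 0, with 2 past the threshold, miR-143-3p and miR-145a-5p, both higher in luminal cells. miR-1a-3p, a striated muscle miRNA on that list, had 22 and 72 reads in basal against 0 and 1 in luminal replicates 1 and 2. Both lists were higher in both luminal than in both basal libraries, as was the summed level of the cluster. Within the luminal libraries, the cluster and the neural list were higher in replicate 1. The widest gaps on the neural list were those of miR-9-5p (259 and 74.0 RPM in luminal replicates 1 and 2) and miR-9-3p (183 and 46.4 RPM). Of the other tested names, miR-7a-1-3p and miR-153-3p were higher in replicate 1, and miR-128-3p, miR-138-5p, miR-218-5p, miR-219a-1-3p and miR-7a-5p in replicate 2. The fibroblast and smooth muscle list was higher in luminal replicate 2. There miR-145a-5p stood at 4531 and 9694 RPM in luminal replicates 1 and 2, while miR-143-3p ran the other way, at 4950 and 2689 RPM. Of its miR-199a, miR-199b and miR-214 names, none passed. Among these, miR-199a-5p and miR-214-3p were higher in both luminal libraries, and miR-199a-3p, miR-199b-5p and miR-214-5p overlapped between groups. The part of either list in the level of the cluster was not tested. The endothelial miR-126a summed to 55099 and 34582 RPM in basal against 10587 and 967 RPM in luminal replicates 1 and 2. The 3 haematopoietic names summed here reached 3452 and 6367 RPM in basal against 2867 and 1514 RPM in luminal replicates 1 and 2. Nearly all of the haematopoietic sum was miR-150-5p, and miR-223-3p on the same list ran the other way, at 7.10 and 63.5 RPM in basal against 29.1 and 332.6 RPM in luminal replicates 1 and 2. Of these 3 names, 2 had a log2 fold change above 0 and 1 below 0, and none passed. miR-142, planned for this list as miR-142a, is listed without the letter and is not in the sum. miR-142-3p had 74 and 164 reads in basal against 63 and 256 in luminal replicates 1 and 2. miR-142-5p had 36 and 200 against 62 and 232. Both had log2 fold changes below 0, at -1.74 and -1.69 (edgeR adjusted p = 0.379 and 0.388). The basal marker miR-205 had 139235 and 271934 reads over both arms in basal replicates 1 and 2, against 8745 and 5671 in luminal replicates 1 and 2. The luminal markers miR-148a and miR-375 summed to 3109 and 4148 RPM in basal against 26382 and 23246 RPM in luminal replicates 1 and 2. These basal and luminal markers followed the labels. They were chosen with earlier results of these data known, so they are no independent check of the gates. In bulk samples, fewer cells that express a miRNA and less of it in each cell cannot be told apart.

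For the comparison of basal with luminal cells, counts of all miRNAs were fitted with edgeR. Of the 62 members, 17 had enough reads in at least 2 libraries to be tested. These 17 held 79.8% of the member reads. Across all 345 tested miRNAs, 4.35% were called at an adjusted p under 0.05, made up of 3.77% higher in luminal and 0.58% higher in basal cells. Of the 17 members, 1 (5.88%) was called, miR-329-3p, and it was higher in luminal cells. At an unadjusted p under 0.05, 5 members were higher in luminal and 0 in basal cells, where the background was 9.57% and 6.38% of the tested miRNAs. Basal over luminal log2 fold changes lay below 0 for 16 of the 17 members, with a median of -1.85 and a range of -4.45 to 0.42. Over all tested miRNAs 50.1% were below 0 and the median was -0.01. All 17 reached the minimum in luminal replicate 1, 12 reached it in both luminal libraries, 12 in basal replicate 2 and 3 in basal replicate 1, so the filter kept only members with enough reads in luminal replicate 1. The median and counts of the 17 are therefore a description and not support for a direction. Over all 62 members, which no filter had touched, 12 (19.4%) had both luminal libraries above both basal libraries, where 14% of all listed miRNAs did. In the opposite direction there were 0 of 62, where 16.7% of all listed miRNAs had both basal libraries above both luminal libraries. The remaining 50 members overlapped. These counts are on the TMM scale. By plain share of miRNA reads, a scale added after the data were seen, 11 members had both luminal libraries above and 0 had both basal libraries above, where 9.56% and 23.3% of all listed miRNAs did. miR-410-5p, with 6 reads in all, is the member that overlaps on that scale alone.

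**Figure D2:**
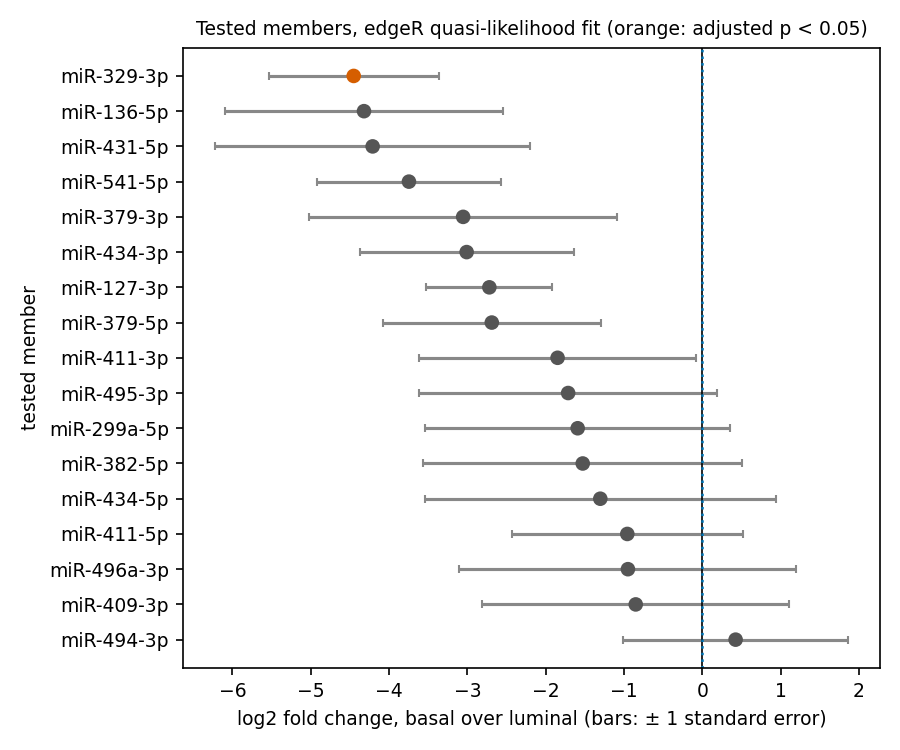
Basal over luminal log2 fold change (x axis) of the 17 tested members, with bars of 1 standard error. The solid line is 0 and the dotted line is the median of all tested miRNAs. miR-329-3p, in orange, has an adjusted p under 0.05, and miR-494-3p alone lies above 0, at 0.42.

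The 7 members opposite Rtl1 lie within the transcript that runs antisense to it. Because they match Rtl1 perfectly, miR-127, miR-136 and miR-434 are known in mouse to guide cleavage of its mRNA. They had the most reads of any stretch in basal replicate 1 and in both luminal libraries, but fewer than the stretch between Rian and Mirg and than Mirg in basal replicate 2. Their reads numbered 84 and 328 in basal against 707 and 445 in luminal replicates 1 and 2. Their summed level was 64.6 ± 46.9 RPM for basal and 451.5 ± 126.7 RPM for luminal cells (SD, n = 2 libraries each), a 6.99-fold higher luminal mean. The groups did not overlap.

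miR-127-3p was the most abundant member in every luminal and every basal library. It had 57 and 300 reads in basal against 570 and 362 reads in luminal replicates 1 and 2, or 55.3 ± 48.1 and 365 ± 100.3 RPM (SD, n = 2 each). As a share of all member reads it was steadier than its level, at 39.0% and 26.3% in basal and 36.3% and 43.5% in luminal replicates 1 and 2. The fold change of -2.72 ± 0.81 (log2, SE) missed the threshold (edgeR quasi-likelihood, Benjamini-Hochberg adjusted p = 0.0651). It passed with the replicate number as a block (edgeR, adjusted p = 0.0137) and in DESeq2 (0.00866), and not with scaling to the Cali reads (edgeR, 0.548). Without luminal replicate 1 the log2 fold change was -2.38 and without luminal replicate 2 it was -2.95, each with a lone luminal library left. Over 13 alternative settings the log2 fold change lay between -4.08 and -1.33.

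miR-136-5p had 1 and 6 reads in basal against 19 and 39 reads in luminal replicates 1 and 2. The log2 fold change of -4.32 ± 1.78 (SE) missed the threshold (edgeR, adjusted p = 0.213). It lay between -5.69 and -3.05 over 13 settings and passed in none that kept all 4 libraries. miR-431-5p had 0 and 6 reads in basal against 26 and 20 reads in luminal replicates 1 and 2 (log2 fold change -4.21 ± 2.01, SE; edgeR adjusted p = 0.311). For both, the luminal libraries lay above the basal libraries, on few reads. Both reached the filter minimum in the luminal libraries alone, so this order is not support for a direction. The 3p arm of miR-434 had 11 and 14 reads in basal against 68 and 19 reads in luminal replicates 1 and 2. The log2 fold change of -3.01 ± 1.37 (SE) missed the threshold (edgeR, adjusted p = 0.287). It was -3.58 once luminal replicate 2 was left out and -1.83 without luminal replicate 1. The 5p arm of the same hairpin did not follow, with 15 and 1 reads in basal against 19 and 0 reads in luminal replicates 1 and 2, so the groups overlapped (log2 fold change -1.30 ± 2.24, SE; edgeR adjusted p = 0.813, and 1.35 with scaling to the Cali reads). Of the remaining 2 members opposite Rtl1, miR-136-3p had reads in luminal libraries alone, with 2 and 5, and miR-433-3p had 1 read in basal replicate 2 and 3 in luminal replicate 1.

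**Figure D3:**
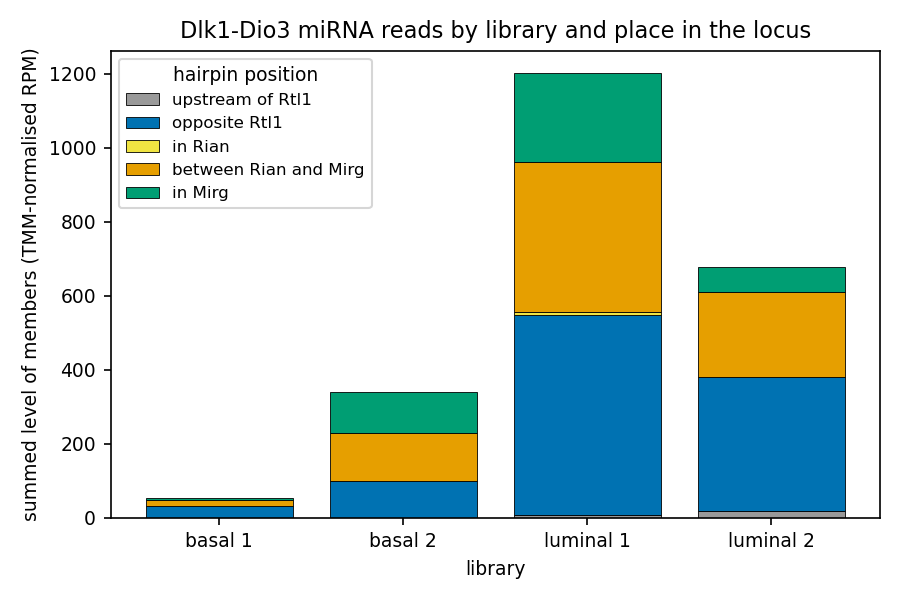
Summed level of members (stacked bars, TMM-normalised RPM) in each library, split by the place of the hairpin in the locus. In the legend, upstream of Rtl1 means before it in plus-strand order. Members opposite Rtl1 and those between Rian and Mirg make up most of each bar, and the bars stand at 54.6 and 339.6 RPM in basal and 1202 and 677 RPM in luminal replicates 1 and 2.

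The 27 members between Rian and Mirg come from 19 hairpins that begin with miR-379. Of these, miR-299b-5p, with 1 read in basal replicate 2, is on the minus strand. With the miRNAs of Mirg, those on the plus strand form the miR-379 to miR-410 group, which in neurons is transcribed together. Reads of the 27 members numbered 39 and 432 in basal against 531 and 281 in luminal replicates 1 and 2. Their summed level was 71.6 ± 80.7 RPM for basal and 317 ± 125.8 RPM for luminal cells (SD, n = 2 libraries each).

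miR-329-3p, a miRNA of the miR-379 to miR-410 group that in rat neurons takes part in activity-dependent dendrite growth, was lower in basal cells. It had 6 and 25 reads in basal against 142 and 132 reads in luminal replicates 1 and 2, or 4.85 ± 3.68 and 108 ± 0.934 RPM (SD, n = 2 each), with no overlap. The luminal libraries agreed closely and the basal libraries less so. The log2 fold change of -4.45 ± 1.08 (SE) passed (edgeR quasi-likelihood, Benjamini-Hochberg adjusted p = 0.0236). Leaving out basal replicate 1 ended the call (adjusted p = 0.337), as did analyses without basal replicate 2 (0.0924), with library totals alone (0.106), with scaling to the Cali reads (0.246) and with a minimum mean of 10 RPM (0.0511). With both arms summed, miR-329 stood at -4.34 and did not pass either (edgeR, adjusted p = 0.0874). In each of 13 alternative settings the log2 fold change stayed below 0, between -5.53 and -3.001. The seed shown above is also that of miR-362-3p, a listed miRNA that is not a member. The other arm, miR-329-5p, had 2 reads in basal replicate 1 and none elsewhere.

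The first hairpin of the stretch gave reads from both arms. The 5p arm, miR-379-5p, was read 1 and 41 times in basal against 61 and 44 times in luminal replicates 1 and 2, and the 3p arm 0 and 13 times in basal against 11 and 31 times in luminal replicates 1 and 2. On the RPM scale both luminal libraries were above both basal libraries for each arm, but neither passed (log2 fold changes -2.69 and -3.05, standard errors 1.39 and 1.96, edgeR adjusted p = 0.358 and 0.449). The 3p arm reached the filter minimum in the luminal libraries alone, so its order is not support for a direction. Next along the locus lies miR-411. miR-411-5p had 6 and 58 reads in basal against 35 and 14 reads in luminal replicates 1 and 2, and miR-411-3p had 7 and 23 in basal against 44 and 1 in luminal replicates 1 and 2. The groups overlapped for both arms (log2 fold changes -0.96 and -1.85, edgeR adjusted p = 0.789 and 0.647). With scaling to the Cali reads, miR-411-5p stood at 0.23.

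Most other members of this stretch with at least 10 reads were set by 1 or 2 libraries. miR-494-3p had 2 and 163 reads in basal against 12 and 34 reads in luminal replicates 1 and 2. It was the single tested member with a log2 fold change above 0, at 0.42 ± 1.44 (SE; edgeR, adjusted p = 0.925), and this was -1.07 with the replicate block, -0.15 without luminal replicate 1 and -4.49 without basal replicate 2. miR-495-3p had 2 and 23 reads in basal against 31 and 2 in luminal replicates 1 and 2, and miR-299a-5p had 0 and 27 against 10 and 21 (log2 fold changes -1.71 and -1.59, edgeR adjusted p = 0.702 and 0.712). Both overlapped between groups. Several members were seen mainly in luminal replicate 1 and were too rare elsewhere to be tested. miR-667-3p had 0 and 10 reads in basal against 67 and 0 in luminal replicates 1 and 2. The 2 arms of miR-376b, a family whose seed is known to be edited by ADAR enzymes in mouse brain, followed that shape. The 5p arm had 0 and 10 reads in basal against 28 and 0 in luminal replicates 1 and 2, and the 3p arm 6 and 1 against 30 and 0. miR-539-5p had 11 reads in luminal replicate 1 and none in any other library. The opposite held for miR-323-3p, which had 14 reads in basal replicate 2 alone, and for miR-487b-3p, which had 15 reads there and 4 in luminal replicate 1.

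The 18 members of Mirg, the long noncoding RNA at the far end of the miRNA group, had 19 and 374 reads in basal against 313 and 83 reads in luminal replicates 1 and 2. Their summed level was 59.3 ± 73.8 RPM for basal and 153.5 ± 122 RPM for luminal cells (SD, n = 2 libraries each). Basal replicate 2, at 111 RPM, lay above luminal replicate 2, at 67.5 RPM, so the groups overlapped here, unlike in the 2 stretches above. Mirg members made up 32.8% of the member reads of basal replicate 2, against 13.0% in basal replicate 1, 19.9% in luminal replicate 1 and 9.98% in luminal replicate 2.

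miR-541-5p, from an intron of Mirg, was free of overlap between groups. It had 6 and 25 reads in basal against 106 and 63 reads in luminal replicates 1 and 2, or 4.85 ± 3.68 and 66.2 ± 21.1 RPM (SD, n = 2 each). Its log2 fold change of -3.75 ± 1.17 (SE) missed the threshold (edgeR, adjusted p = 0.0895). Of the settings that kept all 4 libraries, it passed in DESeq2 alone (adjusted p = 0.00671). With scaling to the Cali reads the adjusted p was 0.344 (edgeR). Over 13 settings the log2 fold change lay between -4.82 and -2.28. The 3p arm was listed with 7 reads in luminal replicate 1 alone.

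miR-377-3p had 3 and 9 reads in basal against 81 and 1 reads in luminal replicates 1 and 2, and so was high in 1 luminal library. It reached the filter minimum in luminal replicate 1 alone, so it was not tested with all 4 libraries. miR-382-5p had 0 and 29 reads in basal against 32 and 1 in luminal replicates 1 and 2, miR-409-3p 0 and 36 against 16 and 9, and miR-496a-3p 1 and 25 against 20 and 0. miR-485-3p, too rare to be tested, had 0 and 12 reads in basal against 6 and 0 in luminal replicates 1 and 2. For the 3 tested members of this shape basal replicate 2 and luminal replicate 1 were the high libraries (log2 fold changes -1.53, -0.85 and -0.95, edgeR adjusted p = 0.738, 0.878 and 0.878).

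A small set of members was highest in basal replicate 2. miR-369-3p, which in human cells is known to bind the TNF mRNA, had 1 and 150 reads in basal against 4 and 0 reads in luminal replicates 1 and 2. miR-410-3p, from the last hairpin of the group, had 0 and 59 reads in basal and 0 and 0 in luminal replicates 1 and 2. Their hairpins are neighbours at the end of Mirg. Of the 30 members with at least 10 reads, 5 (16.7%) had their highest RPM in basal replicate 2. These were miR-323-3p, miR-369-3p, miR-410-3p, miR-487b-3p and miR-494-3p. Luminal replicate 1 was highest for 21 (70%), luminal replicate 2 for 4 (13.3%) and basal replicate 1 for 0. Among the 488 miRNAs with at least 10 reads in any library, these shares were 27.7% for basal replicate 2, 24.8% for luminal replicate 1, 24.6% for luminal replicate 2 and 23.0% for basal replicate 1. The erythroid list was also highest in basal replicate 2, at 3048 RPM, against 172 RPM in basal replicate 1 and 208 and 647 RPM in luminal replicates 1 and 2. So were the haematopoietic sum, at 6367 RPM, and the basal marker miR-205, at 81015 RPM. The part of any of these in the 5 members was not tested.

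**Figure D4:**
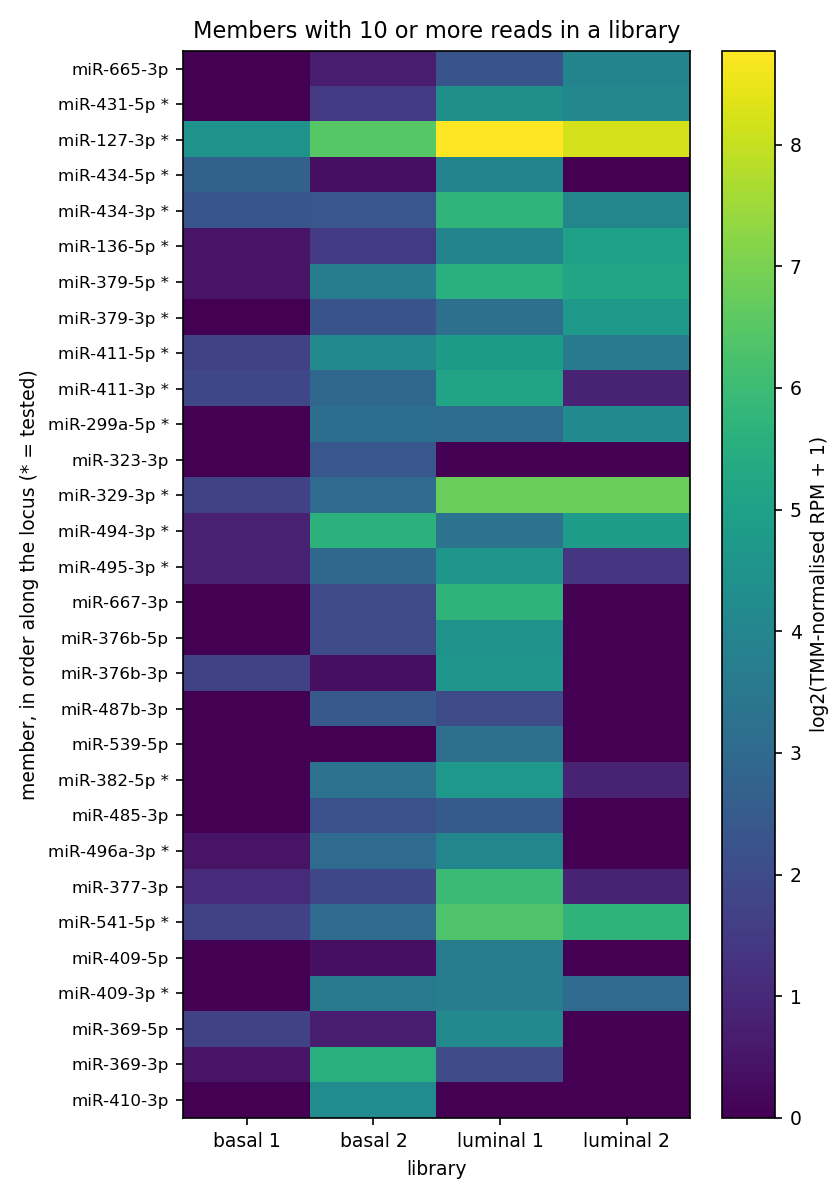
Level of the 30 members with at least 10 reads in a library, as log2(TMM-normalised RPM + 1), in each of the 4 libraries (columns), with members in order along the locus (rows). miR-127-3p is the brightest row, luminal replicate 1 is the brightest column for 21 members, and miR-369-3p and miR-410-3p at the bottom stand out in basal replicate 2.

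The ratio of the 2 arms of a hairpin is counted within a library, so scaling cannot change it. Both arms were listed for 20 hairpins, and 17 of these had at least 10 reads over all libraries. Of the 17, 7 had more 5p reads and 10 more 3p reads, with miR-376b put under 5p on 38 against 37 reads. The dominant arm was the same in every library with reads for miR-136, miR-299a, miR-379, miR-382 and miR-541 (5p) and for miR-329, miR-495 and miR-665 (3p). The hairpins of miR-369 and miR-411 are given below because their arms shifted between libraries, with the 2 mature arms in capitals (RefSeq, GRCm38.p6, plus strand of chromosome 12). Mir369 lies in an intron of Mirg from 109743418 to 109743496, and Mir411 lies from 109710175 to 109710256 in no other annotated gene.
Mir369: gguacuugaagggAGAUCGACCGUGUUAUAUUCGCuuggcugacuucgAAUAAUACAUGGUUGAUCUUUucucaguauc
Mir411: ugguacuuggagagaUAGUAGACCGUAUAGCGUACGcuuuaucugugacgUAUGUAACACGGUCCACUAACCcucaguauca

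For miR-369, the 5p arm took 6 of 7 reads in basal replicate 1 (85.7%, exact 95% interval 42.1 to 99.6) and 2 of 152 reads in basal replicate 2 (1.32%, 0.160 to 4.67). In luminal replicate 1 it took 22 of 26 reads (84.6%, 65.1 to 95.6), and luminal replicate 2 had no read of either arm. The basal libraries thus lay at opposite ends, and luminal replicate 1 lay near basal replicate 1. For miR-411, the 5p arm took 46.2% and 71.6% of the reads of basal replicates 1 and 2, against 44.3% and 93.3% of those of luminal replicates 1 and 2. Here too the libraries of a group differed more than the groups did. The 5p share of miR-434 was 57.7% (36.9 to 76.6) and 6.67% (0.169 to 31.9) in basal replicates 1 and 2, against 21.8% (13.7 to 32.0) and 0% (0 to 17.6) in luminal replicates 1 and 2. miR-409 had 1 of 37 reads from its 5p arm in basal replicate 2, against 16 of 32 in luminal replicate 1 and 0 of 9 in luminal replicate 2. In none of these 4 hairpins did the intervals set both basal libraries apart from both luminal libraries.

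**Figure D5:**
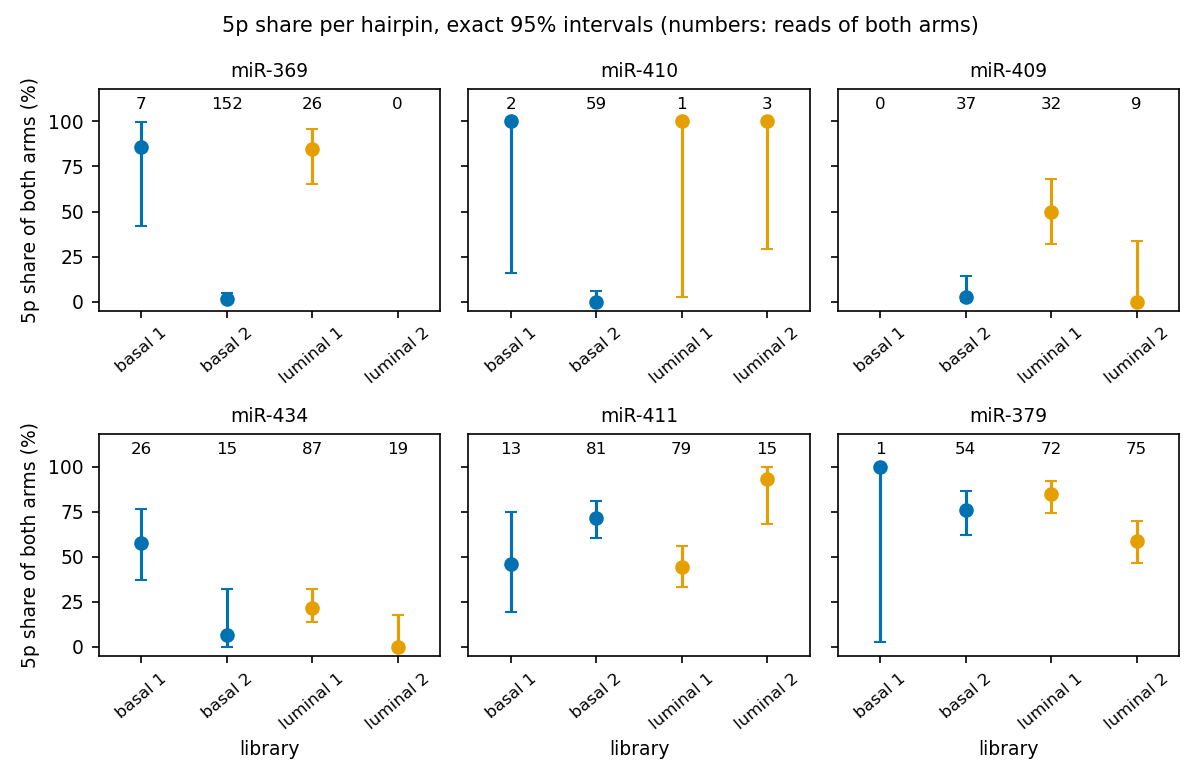
Share of reads from the 5p arm among reads of both arms (y axis, percent) in each library for 6 hairpins, with exact 95% intervals for counting error and the reads of both arms written above. For miR-369 the share is 1.32% in basal replicate 2 and 84.6% in luminal replicate 1, and luminal replicate 2 has no point because it has no read.

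The remaining stretches were close to the limit of detection. The 6 members before Rtl1 in plus-strand order come from the hairpins of miR-337, miR-540, miR-665 and miR-3070b. They had 0 and 3 reads in basal against 9 and 22 reads in luminal replicates 1 and 2. miR-665-3p gave most of these, with 0 and 2 in basal against 5 and 18 in luminal replicates 1 and 2. The 4 members in Rian, from miR-341, miR-1188 and miR-370, had 4 and 3 reads in basal against 10 and 1 in luminal replicates 1 and 2. Of the luminal reads, 9 were miR-370-3p in luminal replicate 1. No member of these 2 stretches reached the filter minimum in 2 libraries, so none was tested.

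Of the other miRNAs of the locus that the rule does not take, miR-673-5p had 0 and 9 reads in basal against 3 and 0 in luminal replicates 1 and 2, and miR-3072-3p had 8 reads in basal replicate 1 alone. miR-1247-5p, named after its values were seen, comes from an exon of Dio3os, the antisense transcript beside Dio3 at the far end of the locus. It stood at 111 and 50.3 RPM in basal against 29.1 and 0.813 RPM in luminal replicates 1 and 2, the last on 1 read, and so lay higher in both basal libraries, the reverse of the order seen for the summed members. Its log2 fold change of 2.43 ± 1.22 (SE) missed the threshold (edgeR, adjusted p = 0.351).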

How the data were processed

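Small RNA reads were counted by the authors and deposited as whole-number counts per miRNA name, in 1 table with a list for each of the 4 libraries and no normalization, per the file headers. The name of the deposited table points to BLAST. For its version, the miRNA release, the mismatches allowed and reads with several matches: not given in the sources used here. Unlisted names were taken as 0, the unnamed sum of each list was left out, and 4 names that are no miRNA (3 Cali names and a 5' adaptor, 29.5% to 62.4% of listed reads) stayed out of totals and tests.

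Counts were tested with edgeR 4.0.16 (R 4.3.3): TMM factors (1.44 and 1.02 in basal, 0.826 and 0.819 in luminal replicates 1 and 2), filterByExpr defaults (minimum 10 reads, total 15), a quasi-likelihood fit with cell type as its only term over 345 miRNAs, 2-sided, with Benjamini-Hochberg adjustment and a threshold of 0.05. The filter asked for that minimum, scaled to library size, in at least 2 libraries. Standard errors are the fold change over the square root of F. DESeq2 1.42.0, other scalings and filters, summed arms, a replicate block and runs without 1 library were tried as alternatives. The test was tried on simulated data. Named members are all 17 tested ones and those with at least 10 reads in a library. A few rarer members are named after their values were seen. The members, marker lists and settings were chosen with earlier results of these data known.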

Additional observations from a re-analysis of the deposited data

How the results depend on the processing

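With 2 libraries a group and few reads for most members, single libraries set many values. The count of called members, 1 of 17, was 0 with library totals alone, scaling to the Cali reads, a minimum mean of 10 RPM or summed arms (edgeR, with 4, 0, 4 and 4 members at an unadjusted p under 0.05). It was 2 with the replicate block (the call added was miR-127-3p), 3 in DESeq2, and 0 to 6 without 1 library. It was 0 without basal replicate 1 or 2, 5 without luminal replicate 1 and 6 without luminal replicate 2. Of these, miR-369-3p, miR-377-3p and miR-667-3p had log2 fold changes of 8.75 (higher in basal cells), -4.93 and -4.99. They were not tested in the main comparison and passed in no other setting. With 1 luminal library left out, the basal libraries alone give the spread around the other, which is assumed to vary like them. No call made that way, for any member, is support. Calls over all miRNAs, 15, were 2 with library totals alone, 3 with Cali scaling, 5 with the minimum mean, 23 with the replicate block, 28 in DESeq2, 0 with summed arms (36 at an unadjusted p under 0.05) and 9 to 61 without 1 library. The labels do not say that replicate numbers pair the libraries. Same-numbered deviations correlated at 0.153 over the 345 miRNAs and at 0.377 over the 17 tested members, from which no pairing was drawn. The median log2 fold change of tested members was below 0 in every setting, and ranged from -5.18 to -1.12 without 1 library. Scaling moved the median of all miRNAs from -0.01 to 0.31 with upper-quartile factors, 0.56 with library totals alone and 1.99 with Cali scaling, where the member median was -1.59, -1.38 and -0.78. The luminal share was 0.255% without miR-200c-3p, 0.0299% of all listed reads and 0.0554% to 0.0991% without 1 library. Of 212 values of single tested members under other settings, 12 changed sign, none of them past the threshold. These were miR-411-5p (0.23), miR-434-5p (1.35) and miR-496a-3p (0.10) with Cali scaling, and miR-494-3p with the replicate block (-1.07). Without 1 library the ranges were -7.45 to 2.36 for miR-382-5p, -7.09 to 0.12 for miR-409-3p, -2.77 to 2.51 for miR-411-3p, -4.33 to 5.90 for miR-434-5p, -4.49 to 1.44 for miR-494-3p, -3.94 to 1.23 for miR-495-3p and -4.09 to 6.25 for miR-496a-3p. The cause was not tested.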

Other observations

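Other imprinted miRNA loci were read beside the Dlk1-Dio3 members. miR-335-5p, encoded in Mest, had 58 and 267 reads in basal against 117 and 74 reads in luminal replicates 1 and 2, so the groups overlapped on the RPM scale (log2 fold change -0.56, edgeR adjusted p = 0.804). Its other arm, miR-335-3p, had 1 and 7 reads in basal against 19 and 10 in luminal replicates 1 and 2 (-3.12, adjusted p = 0.459). Of the 30 listed names of the Sfmbt2 intron cluster, 7 were tested and none was called, with a median log2 fold change of -1.41. They summed to 126.3 and 61.4 RPM in basal against 553 and 34.97 RPM in luminal replicates 1 and 2, so luminal replicate 1 was high there as well, while luminal replicate 2 was the lowest library. miR-298-5p had 50 and 13 reads in basal against 25 and 5 in luminal replicates 1 and 2. The miR-344 names, near Magel2, summed to 0 and 6 reads in basal against 1 and 11 in luminal replicates 1 and 2, and miR-483, in Igf2, to 2 and 13 against 0 and 1. No name of miR-675, encoded in H19, was listed.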
